A study of Mus musculus with 12 samples.

Results

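Gene expression in the mouse testis was compared between 12 months (12M) and 18 months (18M) of age, the last step of a series of 4 ages. Reads were summed per gene over the assembled transcripts that equal a RefSeq transcript, lie within it, share a splice junction with it or overlap its exons. This gave 24336 genes, and 18109 of them had enough reads in the 6 libraries to be tested. The whole study sequenced testes of the inbred strain C57BL/6 from 12 mice, 3 each at 3M, 6M, 12M and 18M, with 1 library per mouse. All mice are labelled wild type (WT), with no treatment named, and age is the single labelled difference between the groups. After removal of ribosomal RNA, the total RNA was sequenced from both ends without strand information. The values of genes that overlap another gene on the opposite strand are therefore uncertain. Values of genes that overlap on the same strand are uncertain too, as they depend on how reads were divided among overlapping transcripts. That division was not tested. The p-values below measure the spread between these 3 mice per age.

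The testis makes sperm in the seminiferous tubules, where spermatogonia divide, enter meiosis as spermatocytes and mature as spermatids, supported by Sertoli cells. Leydig cells between the tubules respond to luteinizing hormone through the receptor Lhcgr and turn cholesterol into testosterone. Star brings cholesterol into the mitochondrion, Cyp11a1 cuts its side chain, and enzymes of the 3β-hydroxysteroid dehydrogenase family, Cyp17a1 and Hsd17b3 complete the path. In RNA from whole tissue, fewer cells of a type and less RNA per cell cannot be told apart.

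The reads in genes ranged from 49833587 to 68057885 per library and made up 94.3% to 94.9% of the deposited reads of these libraries. The 10 most abundant genes held 3.23% to 3.67% of them, and no 2 libraries held the same values. The third 12M library (12M-3) stood somewhat apart: the summed level of 19 elongating spermatid genes was 38040 CPM (reads scaled to the size of the library) in it, against 31061 and 31085 in the other 12M libraries and 30694 to 35245 at 18M. The calls and list medians were also computed without each library in turn, and some of these values are given below. Of 15 listed genes of epididymis and duct cells, 3 (Lcn5, Lcn10 and Adam7) had 0 reads in all 6 libraries. The others had reads, and Cst8 held most of them. The summed list was 156 to 192 CPM at 12M and 176 to 192 CPM at 18M. Whether tissue of the neighbouring epididymis was present was not tested.

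Between 12M and 18M, 5 of the 18109 genes passed the test (edgeR's quasi-likelihood test, adjusted p of 0.05 or less), which is 0.0276% of the genes tested. Ddit3, Dpm1 and Gm20605 rose, and Lrch4 and Lrrc58 fell. The level of most genes lay close to its 12M value: the log2 fold change was under 0.25 in size for 15472 genes (85.4%), and 1 or more in size for 169 (0.933%). The median size of the change was 0.0744 on the log2 scale, below the median standard error of 0.11. At an unadjusted p of 0.05 or less, 297 genes were higher (1.64%) and 340 lower at 18M (1.88%). The 3 libraries of 18M all lay above those of 12M for 839 genes (4.63%) and all below for 742 (4.1%). The same test called 9 of 18063 genes between 3M and 6M (0.0498%) and 11 of 18086 between 6M and 12M (0.0608%), so few genes passed at any step.

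The number of calls differed between tools, between sets of libraries in the fit and with single libraries left out. DESeq2, which has its own test, filter and size factors, called 35 genes, among them the same 5. When all 12 libraries shared 1 estimate of the spread, edgeR called 0 of 18481 genes, with 708 at an unadjusted p of 0.05 or less. Leaving out 12M-3 gave 19 calls, leaving out 18M-1 gave 10 and leaving out 12M-2 gave 8, against 5 to 7 without each of the other libraries.

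**Figure D1:**
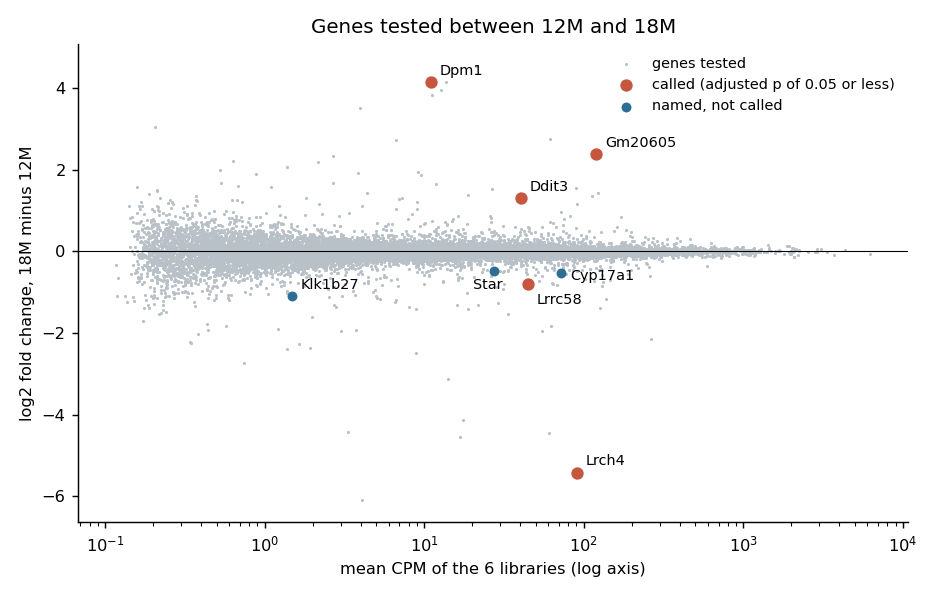
Log2 fold change between 12M and 18M (vertical axis, positive is higher at 18M) against the mean CPM of the 6 libraries (horizontal, log axis) for the 18109 genes tested, each a grey point. The 5 called genes are marked in red, and Cyp17a1, Star and Klk1b27, which were not called, in blue. The spread of the points narrows as the level rises, from a median size of 0.247 under 1 CPM to 0.0363 over 100 CPM.

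Ddit3 was the only gene that rose and shares its assembled locus with no other gene. It encodes CHOP, a transcription factor of the response to misfolded protein in the endoplasmic reticulum and to other stresses, and lies at chr10:127289027-127296288 on the plus strand of mm10. Its level was 22.2, 22.4 and 24.8 CPM in the 12M libraries and 55.0, 56.9 and 59.6 CPM in the 18M libraries. The groups lay far apart, with every 18M library above 50 CPM. The log2 fold change was 1.304 (SE 0.07, n = 3 per age, adjusted p = 0.00131 with edgeR). Most of the difference lay in the RefSeq transcript of 871 bases, which held 715, 817 and 856 reads at 12M and 2097, 2626 and 3709 at 18M. When only transcripts equal to RefSeq were summed, the log2 fold change was 1.71 and the call was lost (adjusted p = 0.12).

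The younger mice did not form a single Ddit3 level. The 3M libraries held 59.3, 53.1 and 21.9 CPM and the 6M libraries 22.3, 24.1 and 50.1 CPM. So 3 of these 6 libraries lay near the 18M level and the other 3 near the 12M level, with none between. On the minus strand Mbd6 overlaps most of Ddit3, and Mars overlaps its far end. Mbd6 had a log2 fold change of -0.06 (SE 0.05) and Mars of 0.01 (SE 0.07), neither past the test.

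No other gene of the unfolded protein response was called. Of 21 tested genes on this list, 10 were above 0 in log2 fold change and 11 below, with a median of -0.002. Hspa5, the main chaperone of the endoplasmic reticulum, was at 473, 514 and 463 CPM at 12M and 496, 483 and 496 CPM at 18M, so the ages overlapped (log2 fold change 0.02, SE 0.05). Xbp1, a transcription factor of the response, had -0.10 (SE 0.14), Asns, which makes asparagine, 0.04 (SE 0.05), Chac1, which breaks down glutathione, 0.13 (SE 0.19) and Trib3, a pseudokinase, -0.57 (SE 0.44). Trib3 was low, at a mean of 0.34 CPM at 12M and 0.222 CPM at 18M. Atf4, which acts upstream of Ddit3 in the stress response, shares its assembled locus with another gene and was not tested, at a mean of 0.165 CPM at 12M and 0.201 CPM at 18M.

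Lrrc58, which encodes a leucine-rich repeat protein, had 56.6, 58.8 and 54.4 CPM at 12M and 34.2, 33.6 and 29.6 CPM at 18M. Its RefSeq transcript lies at chr16:37868400-37888857 on the plus strand. The ages did not overlap, and the log2 fold change was -0.80 (SE 0.07, adjusted p = 0.0316). Among the younger libraries, 3M-2 with 37.7 CPM and 6M-3 with 31.9 CPM were near the 18M level, and the other 4 were between 53.2 and 57.1 CPM. The call was lost when any library but 12M-3 was left out, with an adjusted p between 0.054 and 0.198. It was also lost with the replicate number as a block (adjusted p = 0.0724).

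**Figure D2:**
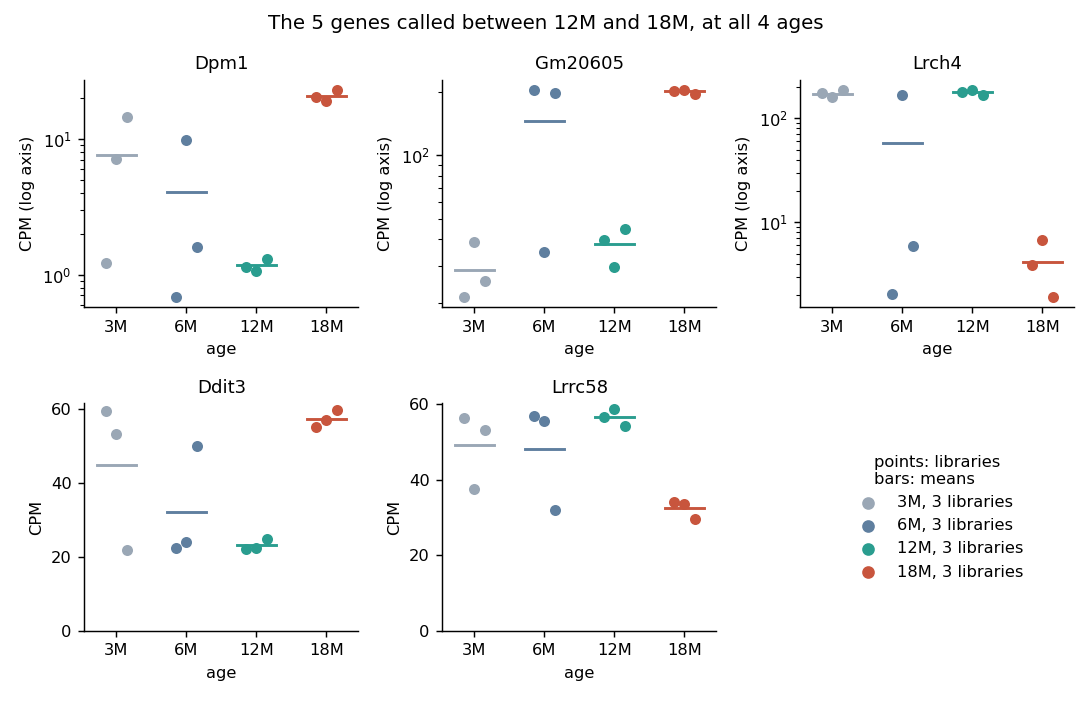
CPM of the 5 called genes in each library (points) with the mean of each age (bars), at 3M, 6M, 12M and 18M; the axes of Dpm1, Gm20605 and Lrch4 are logarithmic. The 12M and 18M libraries separate in every panel. Libraries of 3M or 6M are found near both levels for Gm20605, Lrch4, Ddit3 and Lrrc58, and below every 18M library for Dpm1.

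Lrch4 and Gm20605 share an assembled locus on chromosome 5, and their reads moved in opposite directions. Lrch4 encodes a protein with leucine-rich repeats and a calponin homology domain and spans chr5:137629123-137641099 on the plus strand. Gm20605, a predicted gene, runs over the same exons, at chr5:137628672-137642902. Lrch4 had 177, 187 and 167 CPM at 12M and 3.85, 6.71 and 1.92 CPM at 18M, which made it the gene with the largest fall among the 5 (log2 fold change -5.43, SE 0.42, adjusted p = 0.0109, and 0.0534 without 18M-1). Gm20605 had 39.8, 29.5 and 44.9 CPM at 12M and 202, 204 and 196 CPM at 18M (log2 fold change 2.40, SE 0.14, adjusted p = 0.00257). Neither gene had overlapping ages.

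The sum over this locus, which also holds Sap25, was 205, 206 and 196 CPM at 12M and 196, 197 and 185 CPM at 18M. CPM of loci are scaled to all reads of the table and CPM of genes to the reads in genes, so a locus reads a few percent lower than the genes within it and the 2 scales do not add up. That is a log2 fold change of -0.07 (SE 0.05, unadjusted p = 0.175 in edgeR's test), against -5.43 and 2.40 for the separate genes. In reads, Lrch4 went from 9890, 9522 and 9811 to 207, 332 and 129, and Gm20605 from 2225, 1506 and 2631 to 10863, 10094 and 13159. In the younger mice 6M-1 and 6M-3 had the 18M split, with 2.06 and 5.96 CPM for Lrch4, and the other 4 had the 12M split, with 160 to 185 CPM. Both RefSeq transcripts start at the same base, so a single window before the start serves both genes. It is shown here because it is the shared start of a called pair, from the RefSeq promoter table of GRCm38.p6 (the mm10 build), without the bases that GENCODE vM21 puts in a UTR:
Lrch4 and Gm20605, chr5:137629003-137629120, plus strand: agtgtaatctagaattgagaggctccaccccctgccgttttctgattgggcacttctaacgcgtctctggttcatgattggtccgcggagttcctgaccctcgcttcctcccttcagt

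Dpm1 is the catalytic subunit of the enzyme that makes dolichol phosphate mannose, a sugar donor for glycosylation. It lies at chr2:168209048-168230379 on the minus strand, inside the readthrough gene Dpm1-adnp. It had 1.14, 1.06 and 1.296 CPM at 12M and 20.6, 19.1 and 23.1 CPM at 18M, without overlap (log2 fold change 4.16, SE 0.12, adjusted p = 4.43e-05). Most of the added reads were in 1 of its 2 transcripts, with 17, 20 and 7 reads at 12M and 928, 813 and 1319 at 18M. The 3M libraries had 1.22, 7.19 and 14.6 CPM and the 6M libraries 0.685, 9.93 and 1.59 CPM, so the younger mice ranged from the 12M level to 14.6 CPM, below every 18M library. Dpm1-adnp, which holds most reads of the locus, had 234, 245 and 199 CPM at 12M and 215, 209 and 208 CPM at 18M (log2 fold change -0.10, SE 0.08). On the scale of all reads in the table, the sum over the locus with Adnp was 226, 236 and 187 CPM at 12M and 227, 217 and 219 CPM at 18M (log2 fold change 0.03, SE 0.08, unadjusted p = 0.693 in edgeR's test).

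Of all genes tested, 1330 (7.34%) shared an assembled locus with another gene. Among the 5 called genes it was 3 (60%), and among the 169 whose log2 fold change reached 1 in size it was 75 (44.4%). With reads summed per locus instead of per gene, 2 of 24070 loci passed the test (0.00831%): that of Ddit3 (log2 fold change 1.304, adjusted p = 0.00165) and a locus with no annotated gene. The locus of Lrrc58 kept its log2 fold change of -0.80 with an adjusted p of 0.0947.

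**Figure D3:**
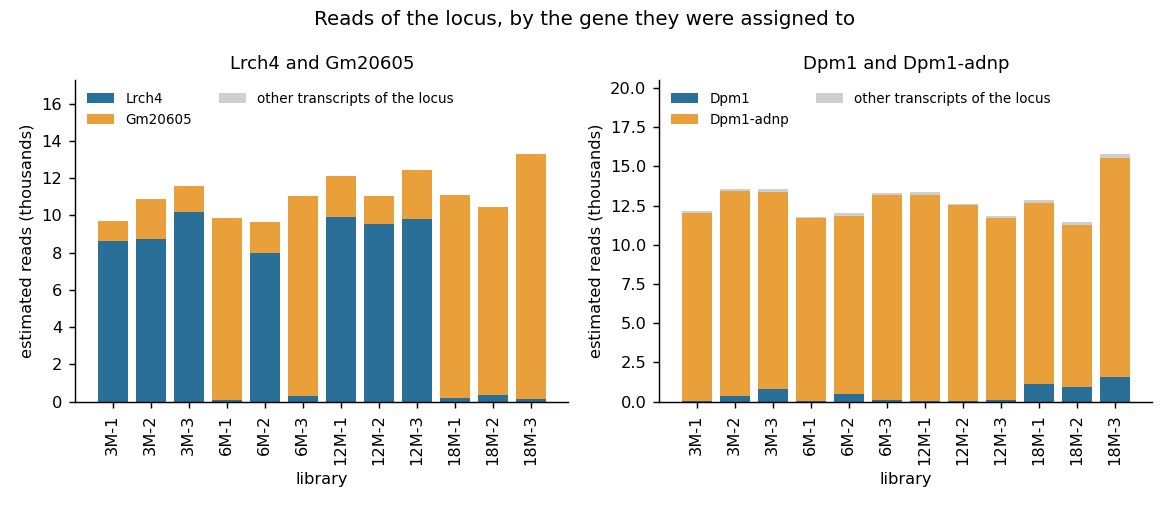
Estimated reads (vertical axis) of the Lrch4 and Gm20605 locus (left) and the Dpm1 and Dpm1-adnp locus (right) in the 12 libraries, stacked by the gene they were assigned to. The bars of the left locus reach 11029 to 12443 reads at 12M and 10427 to 13289 at 18M, while the colours change place within them.

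The window before the start of Lrrc58 holds the only match among the called genes to 4 searched motifs. These were CACGTG (the E-box), TTATGTAA, TGACGTCA (the CRE) and CAAGGTCA, each on both strands over the 250 bases before the start. They occur in 6.02%, 0.817%, 1.55% and 1.33% of 32817 RefSeq promoters. The windows of Ddit3, Dpm1 and the shared start of Lrch4 and Gm20605 hold none of these letters. The window of Lrrc58 is shown for its match, whose first base lies 89 bases before the start and which is in capitals, again without the annotated UTR bases:
Lrrc58, chr16:37868150-37868388, plus strand: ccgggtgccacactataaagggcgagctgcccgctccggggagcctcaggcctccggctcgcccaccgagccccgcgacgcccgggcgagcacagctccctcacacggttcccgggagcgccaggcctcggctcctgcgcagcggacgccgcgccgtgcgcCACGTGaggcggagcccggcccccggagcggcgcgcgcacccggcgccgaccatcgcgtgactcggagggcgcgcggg

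Among the genes not called, those of the lowest unadjusted p in each direction included genes of shared loci and genes alone in theirs. Pnmal1, with 31.1, 33.5 and 33.3 CPM at 12M and 47.4, 47.8 and 48.0 CPM at 18M, had an adjusted p of 0.0523 (log2 fold change 0.55, SE 0.06). The locus it shares with Pnmal2 had a log2 fold change of 0.02 (SE 0.12). Rbm12, an RNA-binding protein, had 0.75 (adjusted p = 0.119), and its locus with Cpne1 0.21. Vamp1, a vesicle fusion protein, had -1.005 (adjusted p = 0.237) and E130112N10Rik, in the same locus, 0.46 (adjusted p = 0.674), while their summed locus had 0.07. Trim43b had -1.02 (adjusted p = 0.442) and its locus 0.01. DESeq2, unlike the main edgeR fit, called Pnmal1 (adjusted p = 3.57e-10), Rbm12 (1.26e-07), Trim43b (1.77e-07), Vamp1 (5.52e-06) and E130112N10Rik (0.00999). Pnmal1 was also called by edgeR with library size only, a mean CPM of 1 or more, a robust fit and without 12M-3. Without 18M-2 edgeR called Trim43b.

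Aym1, Srsf11, Zbtb49, Pias1 and Klhdc1 also had groups that did not overlap. Aym1 had 51.6, 81.3 and 57.9 CPM at 12M and 173, 156 and 158 CPM at 18M (log2 fold change 1.35, SE 0.16, adjusted p = 0.119). Of the 6 younger libraries, 5 were at the 18M level, between 154 and 182 CPM, and 6M-3 was at 41.6 CPM. Srsf11, a splicing regulator, had -0.69 (187, 154 and 197 CPM against 105, 113 and 116 CPM, adjusted p = 0.237). Zbtb49, a zinc finger protein, had -0.60 (adjusted p = 0.237), with 12.9, 13.3 and 12.7 CPM against 8.03, 9.23 and 8.46 CPM, and all 6 younger libraries were above the 18M range, at 11.03 to 13.5 CPM. Pias1, a SUMO ligase, had -0.32 (adjusted p = 0.442) and Klhdc1 0.37 (adjusted p = 0.844). DESeq2, unlike the main edgeR fit, called Aym1 (adjusted p = 1.57e-16), Srsf11 (3.965e-08), Zbtb49 (7.96e-05), Pias1 (0.000558) and Klhdc1 (0.0122). Without 12M-2 edgeR called Aym1 and Srsf11 too.

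Of the genes of testosterone synthesis, Cyp17a1, Star and Por (which passes electrons to Cyp17a1) had lower levels in every 18M library than in any of 12M, and no gene of the path passed the test after adjustment. Of 16 tested genes of the steroid list, 0 were called by edgeR. At an unadjusted p of 0.05 or less, 3 were lower and 0 higher (all genes: 1.88% and 1.64%). Without overlap between the ages, 3 were lower and 0 higher (all genes: 4.1% and 4.63%). In log2 fold change 10 genes were below 0 and 6 above, from -0.53 to 0.56, with a median of -0.084 (all genes: -2.2e-05). The summed level of the list was 366 to 376 CPM at 12M and 299 to 354 CPM at 18M, without overlap. DESeq2 called Cyp17a1 (adjusted p = 8.78e-05) and Star (adjusted p = 0.00887).

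Cyp17a1, the enzyme that makes androgen precursors from progestins, had 88.7, 81.8 and 85.5 CPM at 12M and 67.1, 54.7 and 55.7 CPM at 18M. Every 18M library was below every 12M library (log2 fold change -0.53, SE 0.09, unadjusted p = 0.000486 and adjusted p = 0.587 with edgeR). The 3M libraries, at 148, 196 and 132 CPM, and the 6M libraries, at 128, 136 and 141 CPM, were all above those of 12M. The order of the 4 ages by mean level was therefore 3M, 6M, 12M and 18M, with overlap only between 3M and 6M. Star had 30.0, 32.6 and 33.2 CPM at 12M and 23.1, 20.1 and 25.4 CPM at 18M, also without overlap (log2 fold change -0.48, SE 0.10, unadjusted p = 0.00123 and adjusted p = 0.925).

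Cyp11a1 had 33.6, 35.99 and 34.4 CPM at 12M and 35.0, 21.5 and 17.6 CPM at 18M. The first 18M library was within the 12M range and the other 2 were below it (log2 fold change -0.49, SE 0.23). Hsd3b6 had 65.1, 73.1 and 44.0 CPM at 12M and 52.5, 38.3 and 38.2 CPM at 18M (log2 fold change -0.50, SE 0.20), and the ages overlapped. Its closely similar neighbour Hsd3b1, which shares its locus, had 0.35 (SE 0.22), and their sum -0.14 (SE 0.19), so the values of this pair are uncertain. Hsd17b3, which makes testosterone, had -0.21 (SE 0.21), and Cyp19a1, the aromatase, 0.05 (SE 0.09).

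Lhcgr, the receptor for luteinizing hormone, had 1.72, 2.02 and 1.48 CPM at 12M and 1.25, 1.27 and 1.16 CPM at 18M. The ages did not overlap (log2 fold change -0.50, SE 0.17, unadjusted p = 0.0176 in edgeR's test). Insl3, a peptide hormone with the highest FPKM of its list, had 449, 469 and 439 CPM at 12M and 567, 457 and 422 CPM at 18M, and so had the highest and the lowest library both at 18M (log2 fold change 0.09, SE 0.11). Nr5a1, the transcription factor that switches on steroid genes, had -0.06 (SE 0.08). The 12 Leydig cell hormone, receptor and regulator genes had a median of -0.025, and Lhcgr alone was under an unadjusted p of 0.05.

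Tissue kallikreins, serine proteases of which several are made in Leydig cells, were not alike. Klk1b27 had 1.99, 2.14 and 1.89 CPM at 12M and 1.27, 0.828 and 0.730 CPM at 18M, all lower (log2 fold change -1.09, SE 0.22, unadjusted p = 0.00153 in edgeR's test, not called). The 3M libraries had 10.9 to 13.1 CPM and the 6M libraries 4.65 to 8.37 CPM, so no age overlapped the next. Klk1b24 had 3.36, 3.33 and 3.84 CPM at 12M and 2.07, 2.04 and 1.62 CPM at 18M (log2 fold change -0.88, SE 0.14, adjusted p = 0.442), and DESeq2 called it (adjusted p = 0.00999). Klk1b3, in the same locus, had 0.33 (SE 0.14), and the locus -0.22 (SE 0.11).

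Klk1b21 had -0.65 (SE 0.32), while Klk1b8, the kallikrein with the most reads, had -0.01 (SE 0.16). Over the 12 tested kallikreins, 7 were above 0 and 5 below, and the median was 0.081. It had no settled sign: it was -0.063 without 12M-1, -0.016 without 12M-2, -0.017 without 18M-1, -0.0025 without 18M-3 and 0.138 without 12M-3, and -0.334 over the 6 kallikreins alone in their locus. These genes are near-identical copies, and how reads were divided among them was not tested.

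**Figure D4:**
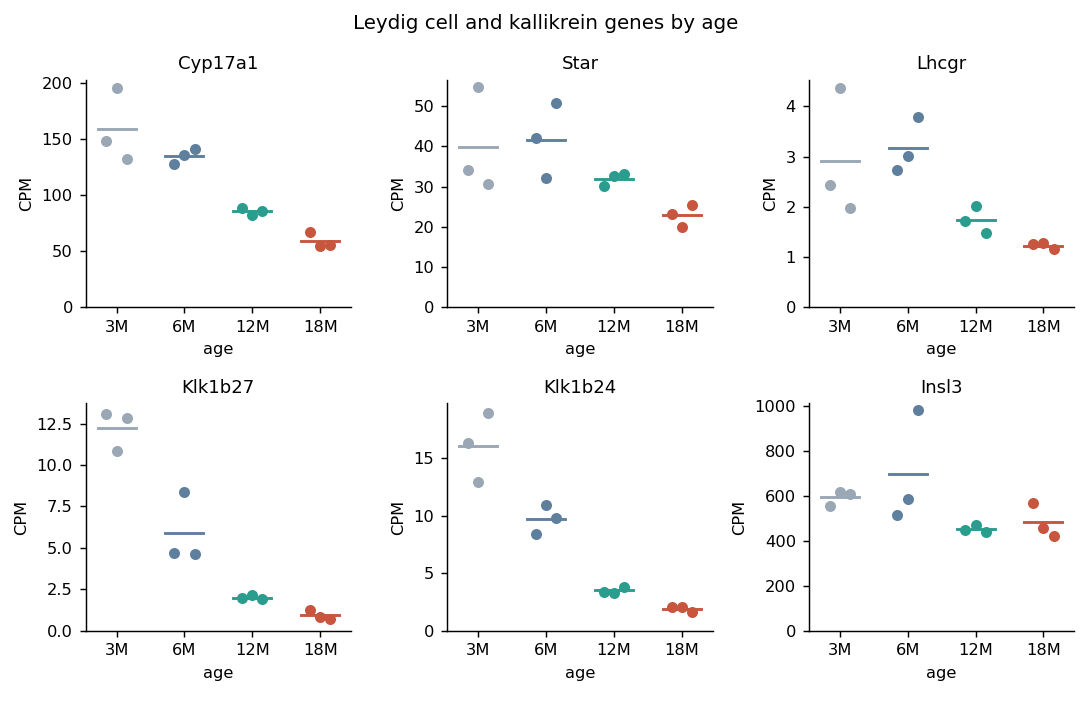
CPM of 6 Leydig cell and kallikrein genes in each library (points) with the mean of each age (bars), from 3M to 18M. Cyp17a1, Star, Lhcgr, Klk1b27 and Klk1b24 have all 18M points below all 12M points, and Insl3 does not. None of the 6 was called by edgeR between 12M and 18M.

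Germ cell lists stayed near the median of all genes. Undifferentiated spermatogonia (13 tested genes) had a median of -0.010, differentiating spermatogonia (12) -0.039, meiotic recombination and the synaptonemal complex (32) 0.009 and late spermatocytes (12) -0.009. The acrosome and sperm-egg fusion list (21) had 0.017, elongating spermatids (19) -0.016, sperm ion channels (12) -0.024, the piRNA pathway (23) -0.029 and testis histone variants and transition genes (13) 0.040. None of their genes was called by edgeR, and 5 in all were at an unadjusted p of 0.05 or less (all genes: 1.64% higher and 1.88% lower). They were Eomes, Pgk2, Spaca1 and Pld6, which were higher, and Hist1h2aa, which was lower. Pld6 shares its locus with Flcn, and the locus had a log2 fold change of 0.03 (SE 0.05) against 0.30 for the gene. Without 12M-3 the median of the elongating spermatid list was 0.072, and that of undifferentiated spermatogonia -0.139. Besides testis histones, the histone and transition list holds the general variants H2afx, H2afy, H2afz, H3f3a and H3f3b, and Brdt, Chd5 and Rnf8. The transition proteins Tnp1 and Tnp2 are in the elongating spermatid list.

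Among single germ cell genes, Gfra1, the receptor for the stem cell factor Gdnf, had 18.0, 15.05 and 17.7 CPM at 12M and 8.79, 16.3 and 11.7 CPM at 18M. The second 18M library was within the 12M range and the other 2 were below (log2 fold change -0.47, SE 0.21). Eomes, a marker of a part of the stem cell pool, had 0.751, 0.607 and 0.529 CPM against 0.857, 0.848 and 1.296 CPM, with every 18M library above 12M (log2 fold change 0.68, SE 0.26). Kit, the receptor of differentiating spermatogonia, had -0.08 (SE 0.15). Prm2, which packs sperm DNA, had 5762, 5831 and 7482 CPM at 12M and 5437, 6202 and 6734 CPM at 18M (log2 fold change -0.06, SE 0.12).

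The list of the sperm flagellum axoneme, the microtubule core of the tail, had 20 of 26 genes below 0, with a median of -0.037. Among all tested genes 9054 of 18109 were above 0. None of the 26 reached an unadjusted p of 0.05 and none was called by edgeR. The largest difference among the dynein heavy chains was that of Dnah17 (log2 fold change -0.13, SE 0.11). The summed level of the list was lower in every 18M library than in every 12M library.

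Lists of supporting cells showed no called gene by edgeR. The medians were 0.012 for Sertoli cells (21 tested genes), 0.017 for peritubular myoid cells (10), -0.018 for endothelial cells (12), 0.025 for interstitial stromal cells (11), 0.010 for the junctions of the blood-testis barrier (20) and -0.008 for collagens, laminins and matrix (75). Cst9, a Sertoli cell cystatin, had 84.6, 80.9 and 89.9 CPM at 12M and 94.1, 92.6 and 101 CPM at 18M (log2 fold change 0.17, SE 0.06, unadjusted p = 0.0304 in edgeR's test). Tagln, a smooth muscle protein of the myoid cells, had 15.8, 15.1 and 15.7 CPM at 12M and 13.6, 12.1 and 12.6 CPM at 18M (log2 fold change -0.28, SE 0.08, unadjusted p = 0.00635). Wt1, a Sertoli cell transcription factor, had -0.03 (SE 0.06) and Gdnf -0.05 (SE 0.15). Lama3, a laminin chain, was the only matrix gene under an unadjusted p of 0.05 (log2 fold change -0.33).

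Lists of immune genes held no gene called by edgeR. Macrophages (15 tested genes) had a median of 0.015, lymphocytes (11) 0.14, MHC and antigen presentation (21) -0.007, interferon-stimulated genes (31) -0.026, inflammation and senescence-associated secretion (17) 0.033 and complement (19) 0.049. No lymphocyte or macrophage gene reached an unadjusted p of 0.05. In the complement list Cfb had 5.58, 4.02 and 4.998 CPM at 12M and 4.93, 9.41 and 8.91 CPM at 18M (log2 fold change 0.67, SE 0.25), and Cfi 0.83 (SE 0.34). H2-DMb1, which loads peptides on MHC class II, had -0.71 (SE 0.25) and Ifit1, an interferon target, -1.13, each under an unadjusted p of 0.05 and not called. H2-DMb1 shares its locus with H2-DMb2, and the summed locus had -0.65 (SE 0.24).

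Red blood cell genes had the highest median of the 47 lists, 0.92 over 5 tested genes, with none under an unadjusted p of 0.05. It rests on the globins Hba-a1, Hba-a2 and Hbb-bs, near-identical copies in shared loci, and on 1 library. The summed list was 26.3 to 27.7 CPM at 12M and 27.65, 29.1 and 55.6 CPM at 18M. Without 18M-3 the median was 0.078, and over the 2 genes alone in their locus it was 0.042. Alas2, the heme enzyme, had 0.06 (SE 0.08) and Slc4a1, a membrane protein of these cells, 0.03 (SE 0.22). Of 15 genes of epididymis and duct cells, 6 could be tested (median -0.18). The adipocyte list (6) had 0.16. These were, with lymphocytes, the 4 lists whose median was 0.1 or more in size, and the other 43 were within 0.1. For red blood cells, lymphocytes and adipocytes this division rests on single libraries. The lymphocyte median was 0.036 to 0.049 in 4 of the 6 fits without 1 library and 0.281 without 12M-3. That of adipocytes was 0.039 to 0.090 in 4 of them and 0.29 without 12M-3. The epididymis and duct median was -0.224 to -0.14 in all 6 fits. Over the 47 lists, 28 had medians of both signs among these 6 fits.

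**Figure D5:**
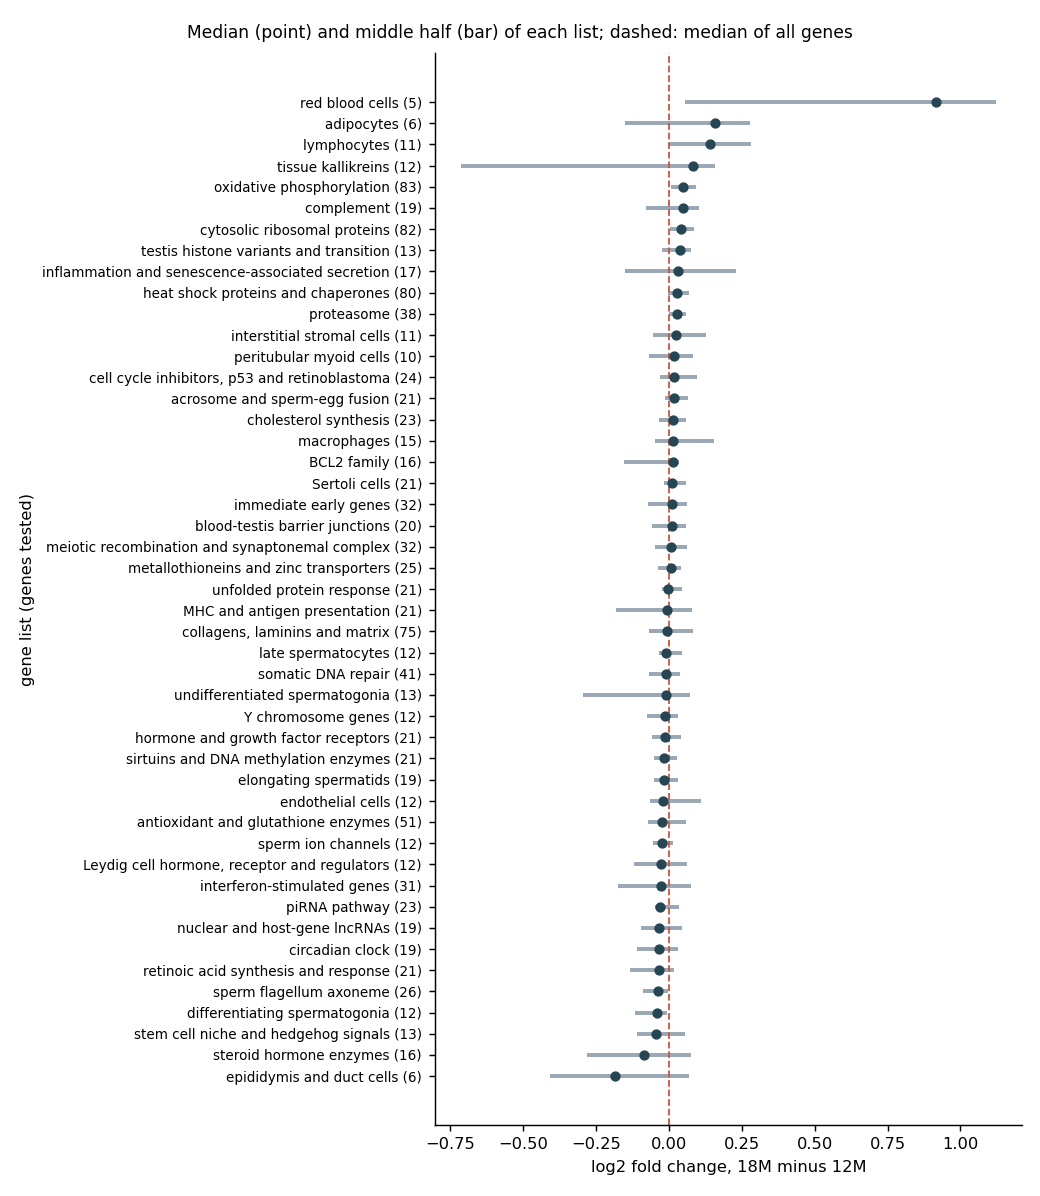
Median log2 fold change between 12M and 18M (point) and the interquartile range over the genes (bar) for 47 gene lists, with the number of genes tested in brackets; the dashed line is the median of all genes. The medians of 43 lists are within 0.1 of 0, and the red blood cell list, with 5 genes, is the farthest out.

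Lists of housekeeping genes had more genes above 0 than below. Oxidative phosphorylation had 65 of 83 tested genes above 0 (median 0.050), cytosolic ribosomal proteins 62 of 82 (0.041), heat shock proteins and chaperones 58 of 80 (0.030) and the proteasome 28 of 38 (0.029), where 9054 of all 18109 genes were above 0. None of these genes was called by edgeR. Single libraries moved these medians. That of the ribosomal list was -0.0013 without 12M-2 and 0.019 without 12M-1, and 0.127 without 12M-3, whose summed ribosomal level of 11868 CPM was above the 10287 and 10035 CPM of the other 12M libraries. That of oxidative phosphorylation was 0.016, 0.019 and 0.109 without the same libraries.

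Among these genes, Psma6, a proteasome subunit, had 305, 298 and 292 CPM at 12M and 404, 338 and 355 CPM at 18M. The ages did not overlap (log2 fold change 0.29, SE 0.07, unadjusted p = 0.00435 in edgeR's test). Ndufb9, a subunit of respiratory complex I, had 44.6, 46.0 and 46.5 CPM at 12M and 51.7, 51.7 and 51.2 CPM at 18M (log2 fold change 0.17, SE 0.05, unadjusted p = 0.0118). Of the 83 oxidative phosphorylation genes, 10 had every 18M library above 12M and 1, Ndufb11, every one below, where the shares over all genes were 4.63% and 4.1%. Hspa1a, an inducible heat shock protein, had 13.2, 11.5 and 14.5 CPM at 12M and 19.1, 22.3 and 13.6 CPM at 18M, and the third 18M library was within the 12M range. Hspa1a shares its locus with Hspa1b, and the summed locus did not overlap between the ages. It had 18.7, 18.9 and 19.7 CPM at 12M and 25.3, 27.9 and 19.9 CPM at 18M (log2 fold change 0.35, SE 0.12).

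Lists often read in studies of aging were close to 0. The medians were 0.017 for cell cycle inhibitors, p53 and retinoblastoma genes (24 tested genes), 0.014 for the BCL2 family (16), -0.015 for sirtuins and DNA methylation enzymes (21), -0.010 for somatic DNA repair (41) and -0.023 for antioxidant and glutathione enzymes (51). Cdkn1a, the p21 inhibitor, had 8.04, 7.86 and 9.30 CPM at 12M and 9.198, 9.25 and 9.94 CPM at 18M (log2 fold change 0.17, SE 0.10). Prdx6, a peroxiredoxin, had 50.8, 68.5 and 53.4 CPM at 12M and 72.1, 98.2 and 102 CPM at 18M, without overlap (log2 fold change 0.65, SE 0.16, unadjusted p = 0.00409), and DESeq2 called it (adjusted p = 0.011). At 3M it was between 52.1 and 54.4 CPM and at 6M between 92.6 and 102 CPM, so its level had no single direction over the 4 ages. Chek1, a checkpoint kinase, had 14.6, 12.9 and 13.2 CPM at 12M and 10.8, 11.4 and 10.9 CPM at 18M (log2 fold change -0.30, SE 0.08, unadjusted p = 0.00663).

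The remaining lists were of signals, metals and chromosomes. The medians were 0.015 for cholesterol synthesis (23 tested genes), -0.035 for retinoic acid synthesis and response (21), -0.014 for hormone and growth factor receptors (21), -0.043 for stem cell niche and hedgehog signals (13), 0.010 for immediate early genes (32) and -0.034 for the circadian clock (19). Metallothioneins and zinc transporters (25) had 0.007, Y chromosome genes (12) -0.013 and nuclear and host-gene lncRNAs (19) -0.033. Cyp26b1, which degrades retinoic acid, had 20.04, 20.7 and 18.7 CPM at 12M and 15.8, 14.2 and 16.8 CPM at 18M, without overlap (log2 fold change -0.35, SE 0.09, unadjusted p = 0.00439). Nr4a3, an immediate early transcription factor, had 4.42, 4.51 and 4.55 CPM against 3.41, 3.66 and 3.37 CPM (log2 fold change -0.37, SE 0.10). Mt3, a metallothionein, had 1.82, 1.76 and 1.43 CPM against 0.782, 1.17 and 1.01 CPM (log2 fold change -0.76, SE 0.20). Fdps, an enzyme of cholesterol synthesis, had 63.5, 62.1 and 58.2 CPM against 68.3, 68.1 and 70.1 CPM (log2 fold change 0.17, SE 0.06). None of these 4 was called by edgeR.

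Over all lists, 1137 of 1214 listed genes in the table were tested and 1 was called by edgeR, Ddit3 (all genes: 5 of 18109). DESeq2 called Ddit3, Cyp17a1, Star, Klk1b24 and Prdx6 among them (all genes: 35 of 19054). The summed level was lower in every 18M library than in every 12M library for 3 of the 47 lists. These were steroid hormone enzymes, the sperm flagellum axoneme and the circadian clock. It was higher for 2 (testis histone variants and transition genes, and the proteasome). The histone and transition list, which includes general histone variants, had 2110 to 2172 CPM at 12M and 2180 to 2184 CPM at 18M. Among all single genes tested, the same separation was found for 4.1% (lower) and 4.63% (higher).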

How the data were processed

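RNA-seq libraries from the testes of 3 mice at 12M and 3 at 18M were compared, with the labels giving each library's age and replicate number. According to the authors, a shared litter among the mice of an age group could not be told. Alignment by the authors used HISAT2 and the mm10 build, and StringTie served them to assemble and quantify transcripts. They deposited for each transcript and library an estimated count, written as a whole number. The authors also deposited an FPKM for each transcript, scaled by length and mapped fragments and not normalized between libraries, which served here only to choose genes by level. Estimated counts were summed per gene over class codes =, c, j and o. The test was that of edgeR 4.0.16, run in R 4.3.3 on the 6 libraries (TMM normalization, filterByExpr, quasi-likelihood F-test, Benjamini-Hochberg adjustment over the 18109 genes tested), and a gene was called at an adjusted p-value of 0.05 or less. The scripts were tested on simulated data. CPM values use the TMM factors of all 12 libraries, and lists and figures were made in Python 3.11.15 (pandas 2.3.3, matplotlib 3.10.9).

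Candidates for naming were chosen by rule. They were the called genes (at most 15 per direction), then in each direction those of the lowest unadjusted p up to 8 (mean of 1 CPM or more). From each list they were the called genes, up to 4 of the lowest unadjusted p and the gene of the highest FPKM. Genes that the study names for hormones were candidates too. Not every candidate is named. Left out are, for example, Pgrmc1 and all candidates of the endothelial, stromal, BCL2, sirtuin and Y chromosome lists. Other genes were added for their known role after their values were seen. The members and lists were chosen with earlier results of these data known. The alternatives were other normalizations and filters, DESeq2 1.42.0, limma 3.58.1 (voom) and a robust fit. Further ones were all 12 libraries in the fit, other class codes, the replicate number as a block and each library left out in turn. Sums over assembled loci, and only genes alone in a locus, were added after the data had been seen.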

Additional observations from a re-analysis of the deposited data

Results flagged for a closer look

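The change between 12M and 18M differed from that between 3M and 6M for 2 of 18481 genes (0.0108%), by the interaction term of edgeR's quasi-likelihood test over all 12 libraries. For Als2cr11 the difference of the log2 fold changes was -0.95 (SE 0.09, adjusted p = 0.00589 with edgeR). Its log2 fold change was 0.85 between 3M and 6M and -0.10 between 12M and 18M. The 3 libraries of 6M held 611.9 to 647 CPM, and those of the other ages held 321 to 392 CPM, so 6M alone was high.

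For Inpp5j, a phosphatase of inositol phosphates, the difference was -3.07 (SE 0.32, adjusted p = 0.00589 with edgeR). The log2 fold change was 2.72 between 3M and 6M and -0.34 between 12M and 18M. Again 6M alone was high, at 2.74 to 3.77 CPM, against 0.283 to 0.619 CPM in the libraries of the other ages. Neither gene was called between 12M and 18M.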

How the results depend on the processing

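The count of 5 called genes was 5 or 6 under the size factors of DESeq2, library size only, no filter on low counts, a mean CPM of 1 or more, voom, a robust fit and other class codes. DESeq2 called 35 genes and the fit of all 12 libraries 0, with 708 genes at an unadjusted p of 0.05 or less. Among genes alone in an assembled locus it was 2, and with reads summed over each gene's locus 1, both chosen after seeing the data. With 1 library left out, the count was between 5 and 19. For the difference from the 3M to 6M change, DESeq2 called 14 genes against 2.

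Summed over its locus, Gm20605 had a log2 fold change of -0.071 in place of 2.40. The robust fit lost Lrch4 (adjusted p = 0.418) and called Pnmal1 in addition. The fit of only transcripts equal to RefSeq lost Lrch4, Lrrc58 and Ddit3 and called Chn2, Ganab and Zfp780b in addition. The sum over all class codes lost Lrrc58 (adjusted p = 0.0703). The cause was not tested. With the replicate number as a block 4 genes were called, without Lrrc58, and 2 for the difference. The mice are different animals, so the main fit used no block. Deviations of same-numbered mice correlated at 0.026, 0.067 and 0.161, and those of different-numbered mice at -0.146 to 0.080. Whether the numbers mark a shared step of handling was not tested. Depth limits genes under 1 CPM, whose median log2 fold change was 0.247 in size.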

Other observations

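A transcript on chromosome 12 that matches no annotated gene held about equal reads in most libraries and 0 in others. On the plus strand of chr12:98378818-98420084, the 12M libraries had 11128, 10637 and 9884 estimated reads and the 18M libraries 0, 0 and 0. The 6M libraries had 10324 to 11643, and of the 3M libraries the first had 10771 and the other 2 had 0. A second assembled transcript covers the same interval on the minus strand, at chr12:98369244-98420084. It had 1190, 12612 and 12586 reads at 12M and 12141, 9848 and 12713 at 18M, and at 3M it was low, at 1221, in the first library. As the libraries keep no strand, the assignment of a read to either transcript is uncertain.

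Malat1, an abundant nuclear lncRNA, had 17.5, 14.97 and 14.3 CPM at 12M and 287, 14.9 and 17.5 CPM at 18M, so 1 library of 18M made the difference of 2.77 in log2 fold change (SE 1.10, unadjusted p = 0.0385 in edgeR's test, not called). High libraries were found at other ages too, with 276 CPM in the third 3M library and 300.4 CPM in the second 6M library. The other 9 libraries held 14.3 to 40.1 CPM.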
